A study of Saccharomyces cerevisiae with 12 samples.

Results

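The genes of the respiratory chain and the ATP synthase of budding yeast (Saccharomyces cerevisiae) were followed on 12 Affymetrix expression arrays. They are 39 genes of the nuclear genome, chosen by name as subunits of the electron transport enzymes, cytochrome c and the ATP synthase. Each was read from the probe set annotated with its symbol, and all 39 were found, each with 1 probe set, among the 5449 genes measured. By enzyme, 3 are NADH dehydrogenases, 4 belong to complex II, 9 to complex III, 2 encode cytochrome c, 9 belong to complex IV and 12 to the ATP synthase. The 7 subunit genes of the mitochondrial genome had no matching symbol on the array annotation and are not analysed here.

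As background, the respiratory chain passes electrons from NADH and succinate to oxygen, and complexes III and IV pump protons across the mitochondrial inner membrane as they do so. The ATP synthase lets the protons back and makes ATP from ADP and phosphate. Budding yeast growing on glucose ferments and represses many respiratory genes, and turns them up when glucose runs out. Arsenate is a chemical analogue of phosphate that can take its place in the reaction of the ATP synthase.

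The cells were strain BY4741, a haploid of mating type a that carries deletions in HIS3, LEU2, URA3 and MET17 in every group. The 4 groups were slt2-deficient cells with arsenate, slt2-deficient cells untreated, wild-type cells with arsenate and wild-type cells untreated, with 3 arrays each. Slt2 is a mitogen-activated protein kinase that acts in cell wall integrity signalling, and the labels do not say how the mutation was made. Treated cells had 100 µM sodium arsenate for 2 h, while untreated cells were taken at 0 min, in YEPD rich medium at 30 °C and in exponential phase, so that arsenate and 2 h of further culture cannot be told apart. Replicates are called independent without further detail, so p-values reflect how far these samples spread, which may be technical only. RNA came from whole cultures, so fewer cells with a transcript and less of it per cell cannot be told apart.

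SLT2 itself checked the genotype labels, at 5.22 to 5.81 on the 6 slt2 arrays, against 10.66 to 11.01 on the 6 wild-type arrays (log2 signal). Deleted LEU2, URA3 and MET17 read at most 5.47 on any array, while the lowest value of any respiratory gene was 6.48, that of NDE2. The values are log2 signals made by the submitters with RMA, a method that corrects background, equalises the arrays and summarises the probes of each probe set. An array has no count depth, and the number of arrays limits the precision. Differences are log2 differences from limma with their standard error (SE), and a gene is called where its Benjamini-Hochberg adjusted p over the 5449 genes is below 0.05.

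Among the wild-type arrays the 39 genes varied far more than among the slt2 arrays. The median SD of a gene over 3 arrays was 0.10 in slt2 cells with arsenate, 0.07 in untreated slt2 cells, 0.83 in wild-type cells with arsenate and 0.36 in untreated wild-type cells. Over all 5449 genes it was 0.07, 0.08, 0.49 and 0.21 in the same groups. The wider wild-type spread was thus not particular to the 39. All 39 genes had their highest value of the 12 arrays on wild-type arsenate array 1, and all 39 had the lowest value of their group on wild-type arsenate array 3. The same counts over all genes are not given here. Measured from each gene's mean over the 12 arrays, the median of the 39 genes was 1.50, 0.61 and -0.07 on wild-type arsenate arrays 1, 2 and 3. It was 0.28, 0.14 and -0.29 on the untreated wild-type arrays. On slt2 arsenate arrays it lay between -0.33 and -0.18, and on untreated slt2 arrays between -0.45 and -0.38, so that the slt2 groups did not overlap in this median.

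**Figure D1:**
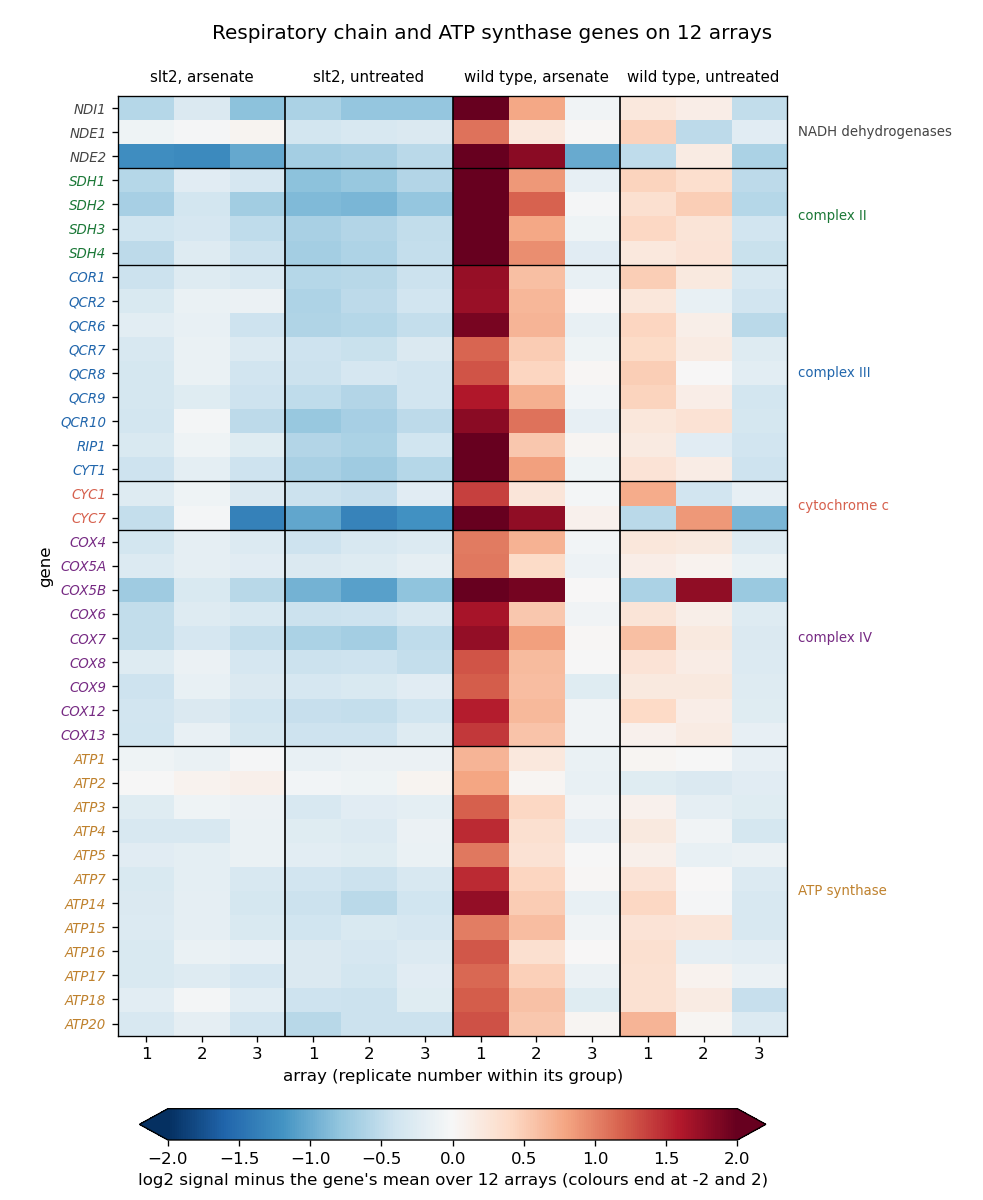
Heat map of the log2 signal of 39 genes (rows, grouped by enzyme) on 12 arrays (columns), each minus the gene's mean over the 12 arrays. Wild-type arsenate array 1 is red for all 39 genes, with a median of 1.50, and the 6 slt2 columns are mostly pale blue.

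Other gene lists moved on the same wild-type arrays. The 12 glucose-repressed genes, such as ADH2 and ICL1, had a median of 5.43 above their own 12-array mean on wild-type arsenate array 1, and lay between -0.84 and 0.22 on the other 11 arrays. For the 12 general stress genes, such as HSP12, it was 3.66 and 2.54 on wild-type arsenate arrays 1 and 2 and 1.10 on untreated wild-type array 2, and between -0.998 and -0.16 on the remaining 9. The 6 hypoxic genes, such as ANB1, were at -1.94 on wild-type arsenate array 1 and at 1.14 on untreated wild-type array 2. The gap between 3′ and 5′ signal of 7 control transcripts, a sign of RNA degradation or labelling, was 1.79 on wild-type arsenate array 2 and 1.59 on untreated wild-type array 2, and 0.92 to 1.18 on the other 10. The part of these in the results on the respiratory genes was not tested. Results that use wild-type arrays are therefore also given, for the gene lists and for the genes with the largest differences, without wild-type arsenate arrays 1 and 2 and untreated wild-type array 2, the 3 arrays that stand apart. That leaves 1 wild-type array with arsenate, taken to vary like the other groups.

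**Figure D2:**
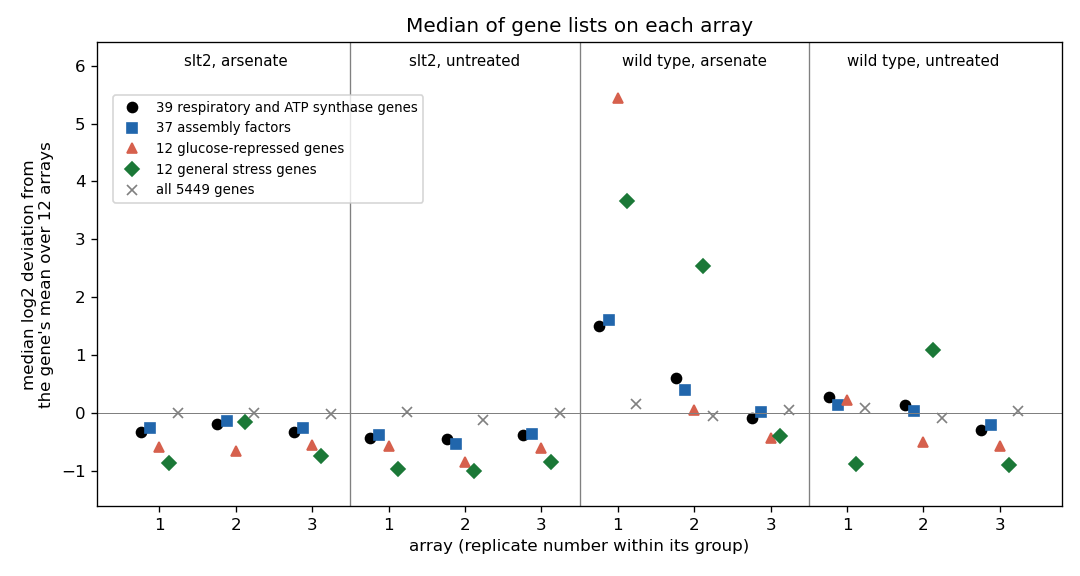
Median log2 deviation from each gene's 12-array mean (vertical axis) for 5 sets of genes on each array (horizontal axis). On wild-type arsenate array 1 the 39 respiratory genes stand at 1.50 and the glucose-repressed genes at 5.43. The median of all 5449 genes lies between -0.11 and 0.16 on every array.

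The arsenate effect in slt2 cells was the one measured with the least spread. With arsenate the levels of most respiratory genes were slightly higher, by a median of 0.16 log2 units, against 0.03 over all genes. Of the 39 genes, 36 had a difference above 0, which 61.1% of all genes had on the values as deposited. With arrays centred on their median, or quantile normalized, 32 of the 39 did. The 61.1% was not taken on those scalings, so it is no background for the 32. In 15 genes (38.5%) all arsenate arrays lay above all untreated arrays, against 15.3% of all genes. A model of the 6 slt2 arrays alone was also fitted. It was chosen with earlier results of these data known, in which wild-type arrays spread far more. In it only the NADH dehydrogenase genes gave calls: NDE1 rose and NDE2 fell. That is 1 of 39 genes called higher (2.56%) where 1.91% of all genes were, and 1 called lower where 0.551% were. At an unadjusted p under 0.05 the counts were 16 higher, against 12.1% of all genes, and 1 lower, against 4.57%. The model of all 12 arrays, in which the wild-type spread widens every SE, called 0 of the 39, and 0 had an unadjusted p under 0.05, where 1.16% of all genes were higher at that p and 0.0367% were called higher.

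Among the NADH dehydrogenases, which feed electrons from NADH into the chain in place of the proton-pumping complex I that this yeast lacks, NDE1 and NDE2 encode the forms that face the cytosol side and NDI1 the form that faces the matrix. NDE2 gave 6.50, 6.48 and 6.73 on the slt2 arsenate arrays, against 7.08, 7.10 and 7.21 on the untreated slt2 arrays. All 3 arsenate values lay below all 3 untreated values, as in 7.27% of all genes, a difference of -0.56 (SE 0.08, limma adjusted p = 0.0244). NDE1 gave 12.24, 12.30 and 12.39 with arsenate, against 11.96, 12.01 and 12.04 untreated. Here all arsenate values lay above the untreated ones, by 0.31 (SE 0.06, limma adjusted p = 0.0452). Over 11 other settings the adjusted p ran from 0.0116 to 0.0969 for NDE2, which kept its call in 5, and from 0.0366 to 0.141 for NDE1, which kept it in 3. Leaving out any 1 of the 6 arrays ended the call of NDE1, and leaving out any but arsenate array 3 ended that of NDE2. NDI1 gave 9.10, 9.39 and 8.86 with arsenate, against 9.04, 8.90 and 8.90 untreated, groups that overlap (0.17, SE 0.13).

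Complex II is succinate dehydrogenase, with the catalytic subunits SDH1 and SDH2 and the membrane anchors SDH3 and SDH4. SDH1, the flavoprotein, gave 10.62, 10.95 and 10.85 in slt2 cells with arsenate, against 10.37, 10.43 and 10.59 untreated. The groups did not overlap, and the difference of 0.34 (SE 0.10) was not called (adjusted p = 0.157). SDH3 had the smallest difference of the 4, 0.16 (SE 0.07), with 11.84, 11.89 and 11.72 with arsenate, against 11.58, 11.64 and 11.74 untreated. Its groups overlapped on arsenate array 3.

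Complex III, the cytochrome bc complex that passes electrons to cytochrome c, had 9 of 9 genes above 0, with a median of 0.30. In 5 of the 9 all arsenate arrays lay above all untreated arrays, against 15.3% of all genes. These were core proteins COR1 (0.19) and QCR2 (0.32), small subunit QCR6 (0.30), Rieske iron-sulfur protein RIP1 (0.32) and haem-carrying CYT1 (0.30). The smallest adjusted p among them was 0.116, that of CYT1. QCR10, a small subunit, gave 10.99, 11.32 and 10.84 with arsenate, against 10.60, 10.70 and 10.85 untreated. Its difference of 0.33 (SE 0.13) was the largest of the complex and rested most on arsenate array 2, and its groups overlapped by a narrow margin. QCR8 gave 12.14, 12.37 and 12.12 with arsenate, against 12.08, 12.16 and 12.12 untreated, groups that overlap (0.09). QCR7 (0.14) and QCR9 (0.16), small subunits too, also overlapped.

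Cytochrome c carries electrons between complexes III and IV, and CYC1 encodes its main aerobic form while CYC7 encodes the minor form. CYC1 gave 11.23, 11.40 and 11.20 in slt2 cells with arsenate, against 11.05, 11.03 and 11.26 untreated, a difference of 0.16 (SE 0.08). CYC7 gave 7.36, 7.79 and 6.49 with arsenate, against 6.80, 6.50 and 6.63 untreated. Arsenate arrays 1 and 2 of CYC7 lay above all untreated arrays and array 3 below them all, so its difference of 0.57, the largest of the 39, has an SE of 0.31 and ran from 0.28 to 0.93 as arrays were left out in turn.

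Complex IV, cytochrome c oxidase, reduces oxygen, and had a median difference of 0.06 over its 9 nuclear genes. COX5B, the form of subunit V associated with low oxygen, gave 9.43, 9.84 and 9.59 with arsenate, against 9.19, 9.06 and 9.33 untreated. Its groups did not overlap, with a difference of 0.43 (SE 0.12, adjusted p = 0.137). COX7 (0.17) and COX8 (0.21), both small structural subunits, did not overlap either. COX5A, the aerobic form of subunit V, gave 12.13, 12.22 and 12.17 with arsenate, against 12.12, 12.15 and 12.22 untreated, and COX9 gave 11.99, 12.25 and 12.11, against 12.06, 12.10 and 12.18. The differences of these were 0.01 (SE 0.05) and 0.0019 (SE 0.08), within the spread of the arrays. COX4 and COX13 both differed by 0.06, with overlap.

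In the ATP synthase the median difference was 0.09 over 12 genes. The catalytic subunits ATP1 (0.05) and ATP2 (0.08) had overlapping groups. ATP18, a small membrane subunit, gave 11.72, 11.89 and 11.71 with arsenate, against 11.52, 11.50 and 11.68 untreated, a difference of 0.21 (SE 0.08) without overlap. The stalk subunit ATP14 (0.19), the small subunit ATP15 (0.10) and the membrane subunit ATP20 (0.18) also had no overlap. None of the 4 was called (limma adjusted p of ATP14, the smallest, 0.226). ATP17 gave 11.54, 11.58 and 11.51 with arsenate, against 11.55, 11.49 and 11.62 untreated, and with ATP4 (-0.04) it was the other ATP synthase gene below 0 (-0.01). Both lay within the spread of their arrays. The gamma subunit ATP3 (0.10) and the stalk subunit ATP5 (0.02) overlapped as well.

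**Figure D3:**
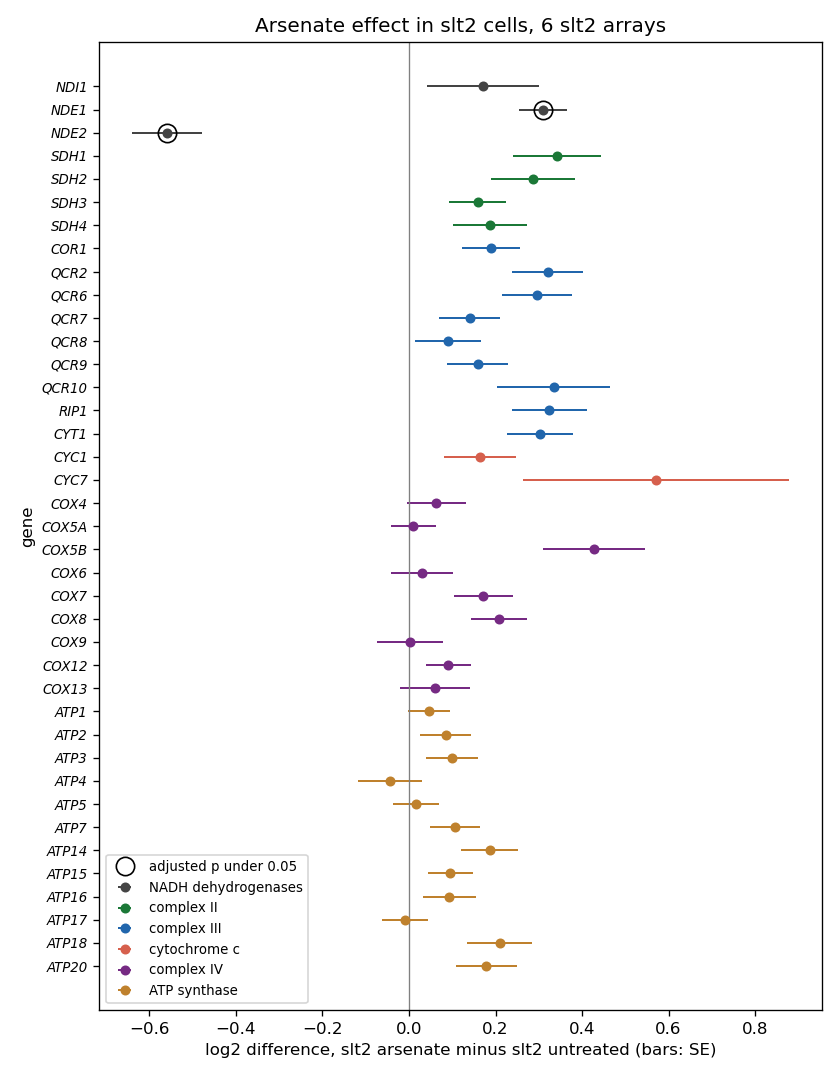
Log2 difference of slt2 cells with arsenate minus untreated slt2 cells (horizontal axis, bars 1 SE, 3 arrays a group) for each gene (rows, coloured by enzyme). The circled genes are NDE1 at 0.31 and NDE2 at -0.56, and 36 of 39 points lie above 0.

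Within the slt2 arsenate group, 32 of the 39 genes were highest on array 2. The general stress genes were at -0.16 on that array too, against -0.85 and -0.74 on arrays 1 and 3, while the glucose-repressed genes were between -0.65 and -0.54 on the 3 arrays. Without array 2 the count of genes with all arsenate arrays higher was 16 (41.0%), against 20.5% of all genes. Untreated array 3 was the one on which 33 of the 39 genes were highest in their group. Without it the count was 25, against 19.9% of all genes. With centred arrays the count was 11, against 13.1% of all genes, and with quantile-normalized arrays 13, against 11.7%.

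Between the genotypes without arsenate, the respiratory genes were lower in slt2 cells, by a median of -0.44 log2 units over the 39 genes, against -0.03 over all genes. The difference was below 0 in 38 of 39 genes, where 55.2% of all genes were below 0, and in 26 of 39 (66.7%) every slt2 array lay below every wild-type array, against 17.9% of all genes. No gene of the 39 passed limma's test in the 12-array model (0 called, adjusted p 1.0 for all 39, 0.0184% of all genes called lower), and 0 had an unadjusted p under 0.05, where 2.73% of all genes were lower at that p. The wild-type spread sets those SEs, with a median of 0.34. With arrays centred on their median the count without overlap was 16, against 13.1% of all genes, and with quantile normalization it was 24, against 15.9%. The submitters' notes do not state 1 RMA run for all arrays, and the values were written with 6 decimals in 42.4 to 45.4% of cases on slt2 arrays, against 88.8 to 90.4% on wild-type arrays. A difference in how the files of the genotypes were made therefore cannot be told apart from genotype in any slt2 against wild-type value.

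All 4 genes of complex II were lower in slt2 cells without overlap, against 17.9% of all genes. SDH1 gave 10.37, 10.43 and 10.59 in untreated slt2 cells, against 11.63, 11.52 and 10.65 in untreated wild-type cells, a difference of -0.80 (SE 0.51). SDH3 gave 11.58, 11.64 and 11.74 in slt2 cells, against 12.64, 12.48 and 11.85 in wild-type cells (-0.67, SE 0.42). In both genes the slt2 arrays came close to wild-type array 3 and stood well below wild-type arrays 1 and 2. SDH2, the iron-sulfur subunit, differed by -0.94 and SDH4 by -0.60. In complex III, 7 of 9 genes were lower without overlap, beside the same 17.9%. Their differences ran from -0.70 in QCR10 to -0.39 in RIP1, and QCR2 (-0.40) and QCR6 (-0.55) overlapped. Without the 3 arrays that stand apart, the differences of SDH1 to SDH4 were -0.68, -0.73, -0.59 and -0.47.

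In complex IV, 8 of 9 genes were lower without overlap, against 17.9% of all genes, COX9 (-0.33) being the exception. COX7 had the smallest unadjusted p of that complex, with a difference of -0.77 (SE 0.37), and gave 11.41, 11.37 and 11.54 in untreated slt2 cells, against 12.65, 12.24 and 11.75 in untreated wild-type cells. COX5A gave 12.12, 12.15 and 12.22 in slt2 cells, against 12.53, 12.48 and 12.27 in wild-type cells. Its difference of -0.26 (SE 0.24) was the smallest of the complex, yet the groups were apart. The ATP synthase was the most mixed, with 5 of 12 genes lower without overlap, beside the same 17.9%, and 1 higher. The 5 were ATP7, ATP14, ATP16, ATP17 and ATP20, from -0.62 to -0.28.

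The gene that stood higher was ATP2, the catalytic beta subunit. It gave 13.49, 13.46 and 13.60 in untreated slt2 cells, against 13.30, 13.26 and 13.32 in untreated wild-type cells. All slt2 arrays lay above all wild-type arrays, by 0.22 (SE 0.20, adjusted p = 1.0), an arrangement that 8.94% of all genes showed. Its partner ATP1, the alpha subunit, gave 13.60, 13.63 and 13.62 in slt2 cells, against 13.78, 13.74 and 13.57 in wild-type cells, groups that overlap (-0.08).

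Wild-type array 3 was the lowest untreated wild-type array in 35 of 39 genes. Set against it alone, the slt2 arrays were all below in 29 genes (74.4%), where 45.7% of all genes were, and without wild-type array 2 the count was also 29, where 32.6% were. With the 3 arrays that stand apart left out, the median difference stayed at -0.44. The genes CYC7, COX5B and NDE2 rested most on wild-type array 2: COX5B differed by -1.08 and CYC7 by -0.998 with it, and over the other settings COX5B came as near to 0 as -0.26 and CYC7 as -0.46.

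Between the genotypes with arsenate, all 39 genes were lower in slt2 cells, where 53.9% of all genes were below 0, with a median of -0.94 against -0.05 over all genes. In 31 of 39 genes (79.5%) every slt2 array lay below every wild-type array, against 23.6% of all genes. At an unadjusted p under 0.05, 34 genes were lower, against 19.6% of all genes, and 0 passed the adjusted threshold in limma (adjusted p from 0.142 to 0.543; 0.0184% of all genes called lower). The count of calls rested on 1 array: without wild-type arsenate array 3, limma called 36 of the 39 lower. Of all 5449 genes it then called 2324, higher and lower together. That total mixes directions, so it is no like background for the 36. On those arrays 38 of the 39 (97.4%) were lower without overlap, against 32.7% of all genes. Once the 3 arrays that stand apart were dropped, the median was -0.19 and 36 of 39 genes were below 0. Set against wild-type arsenate array 3 alone, the slt2 arsenate arrays were all below in 31 genes (79.5%), where 45.2% of all genes were.

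NDE2 had the widest gap, -3.31 (SE 1.22), with 6.50, 6.48 and 6.73 in slt2 cells with arsenate, against 13.33, 9.55 and 6.74 in wild-type cells with arsenate. Wild-type array 1 was far above the rest and array 3 was next to the highest slt2 array. CYC7 gave 7.36, 7.79 and 6.49 in slt2 cells, against 12.02, 9.60 and 7.92 in wild-type cells (-2.63, SE 0.87). NDI1 gave 9.10, 9.39 and 8.86 in slt2 cells, against 13.00, 10.44 and 9.60 in wild-type cells (-1.90, SE 0.68). In these 3 genes wild-type array 3 lay closest to the slt2 arrays. NDE1 overlapped, with 12.24, 12.30 and 12.39 in slt2 cells, against 13.42, 12.54 and 12.35 in wild-type cells (-0.46). Without the 3 arrays that stand apart, the gaps were -0.17 for NDE2, -0.70 for CYC7, -0.48 for NDI1 and -0.04 for NDE1.

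Complexes II, III and IV had 4 of 4, 7 of 9 and 8 of 9 genes lower without overlap, and the ATP synthase 8 of 12. Of all genes, 23.6% were lower without overlap. SDH1 gave 10.62, 10.95 and 10.85 in slt2 cells with arsenate, against 13.51, 12.05 and 11.01 in wild-type cells with arsenate, a difference of -1.39 (SE 0.51). QCR8 gave 12.14, 12.37 and 12.12 in slt2 cells, against 13.76, 12.93 and 12.53 in wild-type cells (-0.86, SE 0.28). ATP17 gave 11.54, 11.58 and 11.51 in slt2 cells, against 13.00, 12.33 and 11.73 in wild-type cells (-0.81, SE 0.26). In all 3 genes the slt2 arrays were tight and the wild-type arrays spread upward from a value just above them. COX9 (-0.82), QCR10 (-1.23), QCR6 (-1.07), ATP1, ATP2, ATP4, ATP18 and NDE1 overlapped. With the 3 arrays that stand apart left out, SDH1 differed by -0.21, QCR8 by -0.32 and ATP17 by -0.19, and the 3 of 39 genes that turned above 0 were ATP1, ATP2 and ATP18.

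The genotypes were compared on separate arrays in the 2 conditions. In 25 of the 39 genes no slt2 array reached a wild-type array in either, as in 12% of all genes (655 of 5449). COX5A, COX6, COX7, COX12 and ATP17 were stricter still: all 6 slt2 arrays lay below all 6 wild-type arrays, treated and untreated together, in these 5 genes of 39, where 6.4% of all genes did so. Of the 5, 4 encode complex IV subunits and ATP17 a membrane subunit of the ATP synthase.

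In wild-type cells all 39 genes were higher with arsenate on average, where 55.2% of all genes were above 0, by a median of 0.62 log2 units against 0.06 over all genes. None was called (0 of 39 with adjusted p from 0.299 to 0.385 in limma; 0.0184% of all genes were called higher), and 5 had an unadjusted p under 0.05, against 9.3% of all genes. In 1 gene, ATP2, the groups did not overlap, against 5.65% of all genes, so the arrays of the 2 groups were mixed in the other 38. The counts changed when single arrays were left out. Without wild-type arsenate array 3, limma called 34 of the 39 higher, and 1608 of all genes, higher and lower together. The 1608 mix directions, so they are no like background for the 34. In 34 of the 39 every arsenate array then lay above every untreated array, against 22.4% of all genes. Without untreated array 1, 11 were higher without overlap (28.2%, against 12.1% of all genes), and without untreated array 2 it was 3 (7.69%, against 13.1%). Once the 3 arrays that stand apart were dropped, the median turned to -0.085, with 9 genes above and 30 below 0.

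SDH1 shows the pattern of most members: it gave 13.51, 12.05 and 11.01 in wild-type cells with arsenate, against 11.63, 11.52 and 10.65 in untreated wild-type cells. Arsenate arrays 1 and 2 lay above all untreated arrays and array 3 lay among them, and the difference was 0.93 (SE 0.51). ATP17 gave 13.00, 12.33 and 11.73 with arsenate, against 12.15, 11.92 and 11.72 untreated (0.42, SE 0.26). ATP2 gave 14.33, 13.58 and 13.40 with arsenate, against 13.30, 13.26 and 13.32 untreated, all higher by 0.47 on average (SE 0.20, adjusted p = 0.299). Other large mean differences were those of NDE2 (2.45, SE 1.22), CYC7 (2.21, SE 0.87), NDI1 (1.38, SE 0.68), SDH2 (1.27, SE 0.59) and COX5B (1.19, SE 0.68), each led by array 1. RIP1 (1.04, SE 0.42) and CYT1 (0.97, SE 0.45) were the largest of complex III. Without the 3 arrays that stand apart, NDE2 (-0.43), SDH1 (-0.13) and ATP17 (-0.21) turned below 0, as did CYT1 (-0.01), while CYC7 (0.81), COX5B (0.70), RIP1 (0.14), SDH2 (0.10), ATP2 (0.08) and NDI1 (0.06) stayed above it, and none was called.

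The arsenate effect in slt2 cells minus that in wild-type cells was below 0 in all 39 genes, where 52.4% of all genes were, with a median of -0.52. None of the 39 was called (0, adjusted p from 0.711 to 0.809 in limma), 0 had an unadjusted p under 0.05, where 0.257% of all genes were lower at that p, and 0.0% of all genes were called. NDE2 had the largest difference, -3.01 (SE 1.73), and NDE1 the smallest, -0.22 (SE 0.42). With the 3 arrays that stand apart left out, the median turned to 0.20, with 36 genes above and 3 below 0. NDE2 was then at -0.12 and NDE1 at 0.41.

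Complexes were set side by side by the median difference of their genes, as a description with no test, and the comparisons share arrays. Between the genotypes without arsenate the medians were -0.74 in complex II, -0.55 in complex III, -0.43 in complex IV and -0.32 in the ATP synthase. With arsenate they were -1.38, -1.07, -0.94 and -0.75 for these 4. For the arsenate effect in wild-type cells they were 0.94, 0.81, 0.61 and 0.51. Each time complex II was farthest from 0 and the ATP synthase nearest, though the genes of neighbouring complexes overlapped. Once the 3 arrays that stand apart were dropped, the medians of these 4 were -0.64, -0.52, -0.32 and -0.30 between the untreated genotypes, and -0.27, -0.19, -0.23 and -0.15 between the genotypes with arsenate, where complexes III and IV changed places. Those of the arsenate effect in wild-type cells turned to -0.10, -0.09, -0.07 and -0.06. For arsenate in slt2 cells complex III (0.30) and complex II (0.24) stood above the ATP synthase (0.09) and complex IV (0.06). The 3 NADH dehydrogenase genes and the 2 cytochrome c genes did not behave as groups, since NDE1 with NDE2, and CYC1 with CYC7, lay far apart in at least 1 comparison.

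**Figure D4:**
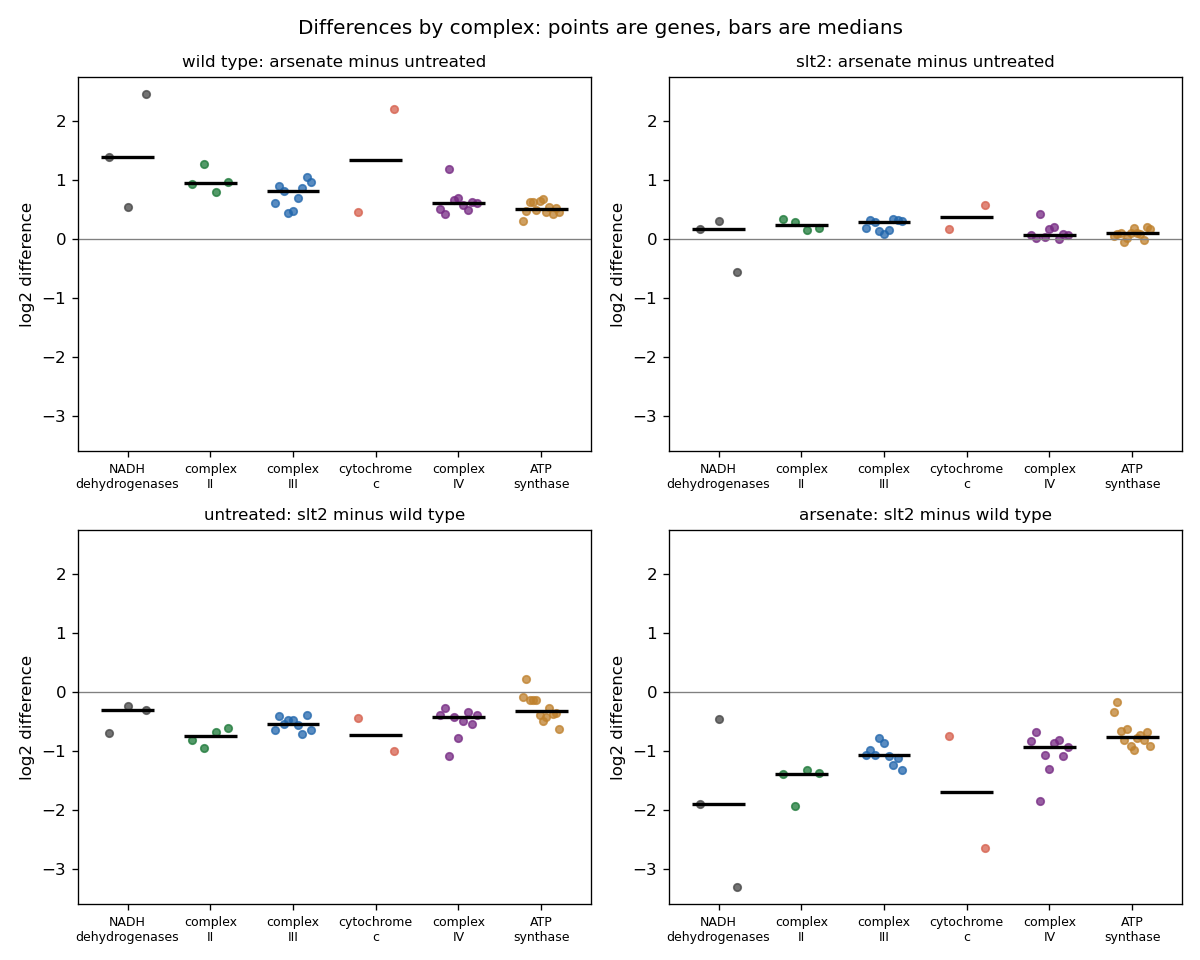
Log2 differences of single genes (points) by enzyme, with the median of each enzyme (bars), in 4 comparisons on the same vertical scale. In the 2 lower panels, slt2 minus wild type, the medians run from -0.74 in complex II to -0.32 in the ATP synthase untreated, and from -1.38 to -0.75 with arsenate.

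COX5A with COX5B, CYC1 with CYC7, and NDE1 with NDE2 are related genes for the same step, the earlier named being the form used in aerobic growth for the first 2 pairs. In wild-type cells the alternative forms moved array by array. COX5B gave 12.20, 12.05 and 10.15 with arsenate, against 9.50, 11.92 and 9.40 untreated, and COX5A gave 13.46, 12.79 and 12.30, against 12.53, 12.48 and 12.27. COX5B was thus high on arsenate arrays 1 and 2 and on untreated array 2, while COX5A on untreated array 2 lay between arrays 1 and 3. Measured from the 12-array mean of each, COX5B stood above COX5A by 1.70 on untreated wild-type array 2 and by 1.01, 1.52 and 0.11 on wild-type arsenate arrays 1, 2 and 3, and lay below it on the other 8 arrays.

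CYC7 gave 12.02, 9.60 and 7.92 in wild-type cells with arsenate, against 7.29, 8.71 and 6.92 in untreated wild-type cells, while CYC1 gave 12.86, 11.74 and 11.45, against 12.23, 11.10 and 11.33. CYC1 was highest among untreated arrays on array 1 and CYC7 on array 2. NDE2 gave 13.33, 9.55 and 6.74 in wild-type cells with arsenate, against 7.24, 7.92 and 7.11 untreated, and NDE1 gave 13.42, 12.54 and 12.35, against 12.80, 11.81 and 12.10. On untreated array 2, NDE2 was the highest and NDE1 the lowest of their group, and on arsenate array 3 NDE2 was below all untreated wild-type arrays, as it was on the 3 slt2 arsenate arrays. The 3 arrays on which the alternative forms were high are also those on which the general stress genes stood highest, and the part of that in these values was not tested.

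**Figure D5:**
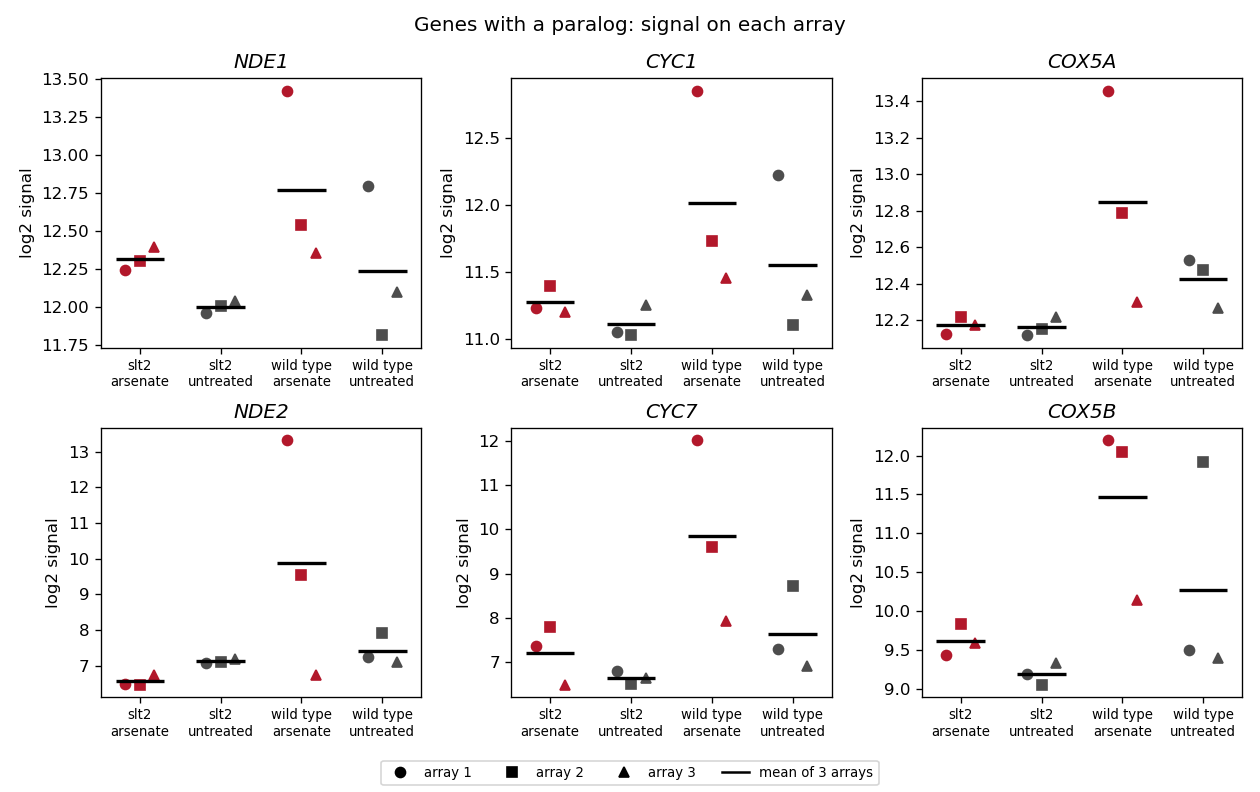
Log2 signal (vertical axes, a scale of its own for each gene) of 6 genes on each array, with group means as bars (n = 3). In the slt2 arsenate group NDE2 lies at 6.48 to 6.73, below the untreated slt2 group at 7.08 to 7.21, while NDE1 lies at 12.24 to 12.39, above 11.96 to 12.04.

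The regulators of these genes were read from a list of 13. HAP4, the activating subunit of the Hap2/3/4/5 complex that switches on respiratory genes, gave 9.14, 9.81 and 9.04 in slt2 cells with arsenate, against 8.79, 8.86 and 8.92 in untreated slt2 cells. It gave 12.71, 10.20 and 9.56 in wild-type cells with arsenate, against 10.43, 10.04 and 9.37 in untreated wild-type cells. Untreated slt2 arrays lay below untreated wild-type arrays by -1.09 (SE 0.66), and slt2 arsenate arrays above untreated slt2 arrays by 0.47 (SE 0.19, adjusted p = 0.291), both without overlap and neither called. The DNA-binding subunits HAP2 and HAP3 differed between the untreated genotypes by -0.62 and -0.43, also without overlap, and HAP5 by -0.15 with overlap. Of the 13, 0 were called in any comparison. Unadjusted p under 0.05 was reached by HAP2 and HAP4, both higher, in the slt2 arsenate effect, where 12.1% of all genes were higher at that p. It was reached by HAP5, higher, for arsenate in wild-type cells (9.3% of all genes), and by HAP3, lower, between the untreated genotypes (2.73%). Between the genotypes with arsenate HAP2, HAP4, ROX1 and CAT8 were lower at that p (19.6% of all genes) and MOT3 higher (13.4%). Without the 3 arrays that stand apart, HAP4 differed by -1.04 and RTG1 by -0.04 between the untreated genotypes, and HAP4 by -0.34 and CAT8 by -0.37 for arsenate in wild-type cells.

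CAT8, an activator of genes for growth without glucose, gave 11.81, 8.07 and 6.74 in wild-type cells with arsenate, against 7.66, 6.23 and 6.55 untreated, and 5.96, 6.30 and 5.51 in slt2 cells with arsenate, against 5.98, 5.95 and 5.95 untreated. It was high on wild-type arsenate array 1, where the glucose-repressed genes stood at 5.43. HAP1, the haem-responsive activator, differed by 0.13 with arsenate in slt2 cells and by -0.23 between the untreated genotypes. The repressors of hypoxic genes, ROX1 and MOT3, differed by 0.05 and -0.07 with arsenate in slt2 cells, and by -0.17 and 0.30 between the untreated genotypes. The glucose repressor MIG1 (-0.20) and the kinase SNF1 (-0.25), which relieves it, were lower in untreated slt2 cells, SNF1 without overlap. Of the 13 regulators, 6 were lower without overlap between the untreated genotypes, against 17.9% of all genes. MOT3 was the 1 that was higher without overlap, against 8.94% of all genes. The retrograde signalling genes RTG1, RTG2 and RTG3 differed by -0.01, -0.04 and 0.0037 with arsenate in slt2 cells, and by 0.45, -0.05 and -0.0019 between the untreated genotypes, with overlap throughout.

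The 37 assembly factors, which build the complexes but are not part of them, were read as a further list. With arsenate in slt2 cells 35 of 37 were above 0, with a median of 0.19, 21 had no overlap (15.3% of all genes), and 0 were called on the 6 slt2 arrays (1.91% of all genes), with 20 at an unadjusted p under 0.05 (12.1%). The smallest adjusted p was 0.0607, that of ATP12 (0.31, SE 0.06), a chaperone of the ATP synthase head; 8 were called with arrays centred, against 2.9% of all genes, and 8 with arrays quantile normalized, against 3.38%. ATP12 gave 10.44, 10.63 and 10.52 with arsenate, against 10.17, 10.20 and 10.27 untreated. CBP4 (0.28), for complex III, COX15 (0.26), for haem of complex IV, and SDH5 (0.44), for the flavin of SDH1, came next. Between the untreated genotypes 30 of 37 were lower without overlap (17.9% of all genes), with a median of -0.43 and 0 called, and with arsenate it was 31 (23.6%), with a median of -0.82. With the 3 arrays that stand apart left out, these medians were -0.41 and -0.25. By unadjusted p, ATP23 (-0.38), CMC1 (-0.55) and PET117 (-0.82) led the untreated comparison, and SDH6 (-1.91), CMC1 (-0.82), SDH8 (-1.48) and PET191 (-1.16) led with arsenate.

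Among 7 further subunits, the ATP synthase inhibitor gene STF1 had the largest arsenate difference in slt2 cells, 0.65 (SE 0.14, adjusted p = 0.0789), with 9.93, 10.34 and 9.75 with arsenate, against 9.33, 9.34 and 9.40 untreated. STF2 (-1.34) and STF1 (-1.13) were the farthest below wild type without arsenate, with no overlap. All 7 were above 0 with arsenate in slt2 cells and below 0 between the untreated genotypes. SHH3, a paralog of SDH3, was lower in slt2 cells with arsenate, on all arrays, by -0.82 (SE 0.22, adjusted p = 0.132), while SHH4, a paralog of SDH4, differed by 0.20. Once the 3 arrays that stand apart were dropped, STF2 and STF1 differed by -0.86 and -0.71 between the untreated genotypes, with 6 of the 7 below 0.

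The 5 ADP/ATP and phosphate carriers, which supply the ATP synthase, were read too. Between the untreated genotypes 3 of 5 were below 0, with a median of -0.13. PET9, the main ADP/ATP carrier, differed by 0.11 (all slt2 arrays higher) and MIR1, the main phosphate carrier, by 0.09. With arsenate in slt2 cells PIC2, the minor phosphate carrier, differed by 0.23 (SE 0.08) without overlap and MIR1 by 0.16. In wild-type cells AAC3, the hypoxic ADP/ATP carrier, differed by -1.45 (SE 0.49) with arsenate. The hypoxic list, which includes AAC3 itself, had a median of -1.39, so that median is not a separate reading. Without the 3 arrays that stand apart, AAC3 turned to 0.09 and the hypoxic median was -0.03. The carriers' median between the untreated genotypes then turned to 0.09. None of the 5 was called in any comparison. Of 5 genes for other enzymes that pass electrons to the chain, 0 were called in any comparison, and their median difference was 0.11 for arsenate in slt2 cells and -0.18 between the untreated genotypes (-0.22 without the 3 arrays that stand apart).

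RIP1 was read a further time by 3 control probe sets, at the 5′ end, the middle and the 3′ end of its transcript, which were not used above. For slt2 minus wild type untreated they gave -0.39, -0.40 and -0.40, next to -0.39 on the main probe set. For arsenate minus untreated they gave 0.35, 0.42 and 0.29 in slt2 cells, next to 0.32, and 1.23, 1.18 and 1.09 in wild-type cells, next to 1.04. The differences of RIP1 were thus of like size along its transcript. These probe sets read the same RNA and are not further replicates.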

How the data were processed

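Each of 12 arrays was hybridised with RNA of 1 sample, extracted with hot phenol per the labels' protocols. The authors deposited log2 signals per probe set, made by RMA as run in Affymetrix Expression Console, according to the submitters' processing notes. Versions, and whether all arrays went through 1 RMA run, are not given there. Of 5814 probe sets, 5498 had 1 gene symbol, 0 had several and 316 had none. For 47 genes with several probe sets, that with the highest mean was kept, which left 5449 genes.

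Groups were taken from the labels. limma 3.58.1 in R 4.3.3 (lmFit, eBayes) was fitted with 4 group means to the 12 arrays, and to the 6 slt2 arrays alone for the arsenate effect in slt2, with Benjamini-Hochberg adjustment over all genes and a threshold of 0.05. The fit to the 6 slt2 arrays was chosen with earlier results of these data known. Groups do not overlap where every array of one lies beyond every array of the other. The model was also run on simulated data with independent noise and the same spread for every gene of a group. Shifts shared by many genes of an array, as seen here, were not simulated, so the run says nothing on them. Tables and figures used Python 3.11.15, pandas 2.3.3 and matplotlib 3.10.9.

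Members and lists (regulators, assembly factors, further subunits, paralogs of complex II subunits, carriers, other electron donors, glucose-repressed, general stress and hypoxic genes) were chosen with earlier results of these data known. Members and regulators could all be named. From the other lists of the pathway, up to 4 genes per comparison are named by smallest p. Values array by array are given for called members, the largest and smallest arsenate effect in slt2 per enzyme and related gene pairs; COX7, ATP1, ATP2, HAP4, CAT8, ATP12 and STF1 were added after their values were seen. Alternatives were a replicate block, centring, quantile normalization, leaving out dim genes, averaging probe sets, group weights, the compared arrays only, and leaving out arrays.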

Additional observations from a re-analysis of the deposited data

How the results depend on the processing

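The median difference of the 39 respiratory genes kept its sign under all alternatives except 1, that of leaving out wild-type arsenate arrays 1 and 2 and untreated array 2, which turned the wild-type arsenate effect to -0.085 and the difference of effects to 0.20, and brought slt2 against wild type with arsenate to -0.19. It also gave 3, 49, 2 and 1 called genes for arsenate in wild type, arsenate in slt2 (12 arrays; 1 member, NDE2), slt2 against wild type untreated and the same with arsenate, and 3 members without overlap in wild type (7.69%, against 27.1% of all genes). The cause was not tested.

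Replicate numbers shared by the groups were not used to pair the samples in the main models. Across genes, deviations of same-numbered arrays correlated at 0.04 to 0.47 between arsenate and untreated arrays in wild type. The range was 0.05 to 0.39 in slt2, and -0.17 to 0.31 between the genotypes. Differently numbered arrays were not compared, so whether same-numbered arrays of a genotype were paired was not settled. With the replicate block, 28 genes and 0 members were called for arsenate on the slt2 arrays (134 and 2 without it), 2 genes for arsenate in wild type and 1 for slt2 against wild type with arsenate. In the slt2 arrays alone, centring gave 242 genes and 1 member, NDE2, and quantile normalization 341 genes, NDE1 and NDE2 among them. The share of all genes called higher was then 2.9% and 3.38%, against 1.91% on the values as deposited. Centring left 16 members lower without overlap between the untreated genotypes, against 13.1% of all genes. With 1 weight per group 0 genes were called for arsenate in wild type, 214 for arsenate in slt2 and 0 between the genotypes with arsenate, and with only the 6 arrays compared 0 in wild type and 1 between the genotypes with arsenate.

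Leaving out 1 array at a time, genes called ran from 1 to 1608 for arsenate in wild type, 1 to 6 for arsenate in slt2, 41 to 107 on the slt2 arrays alone, 2 to 2324 between the genotypes with arsenate and 0 to 22 for the difference of effects. Members called ran from 0 to 34, 0 to 1 (slt2 arrays alone) and 0 to 36 (genotypes with arsenate); the upper values that involve wild-type cells came without wild-type arsenate array 3. Members with all arsenate arrays above all untreated arrays ran from 1 to 34 in wild type, and 15 to 25 in slt2. The shares of all genes ran from 6.99% to 22.4% and from 15.9% to 26.1%. These counts of members without overlap were repeated after the data were seen. With 3 arrays a group, and wild-type arrays that spread widely, calls between groups that include them are limited by that spread. NDE1 and NDE2 are the only members called in a main model, that of the 6 slt2 arrays. Neither call held with the replicate block (smallest limma adjusted p 0.051).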
